A study of Mus musculus and Acomys cahirinus with 25 samples.

Results

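The sebaceous gland opens into the hair follicle canal and fills its cells with lipid until they burst and release sebum. Sebocytes elongate and desaturate fatty acids, reduce some of them to fatty alcohols, and join the products into wax esters, cholesteryl esters and triacylglycerols. In a full-thickness wound the glands are removed with the follicles, so the wound bed starts without them. The rows of 10 genes were taken by symbol from the count files, out of 24500 gene rows in each of 25 RNA-seq libraries. They are the stearoyl-CoA desaturases Scd1, Scd2 and Scd3, the fatty acid elongases Elovl3 and Elovl5, the melanocortin receptor Mc5r, the cholesterol acyltransferase Soat1, the diacylglycerol acyltransferase Dgat2, the fatty acyl-CoA reductase Far2 and the wax synthase Awat2. All 10 rows were present in all 25 files. Levels are CPM, the reads of a gene scaled to all reads assigned to gene rows in that library.

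The 13 laboratory mouse libraries came from animals wounded at 4 weeks of age and taken on post-wound day (PWD) 14. The labels give their genotype and no strain. The study used mainly C57BL/6J mice, bred the knockout from conditional Twist1 and keratin 14-Cre mice, and took Twist1+/+ mice as its control. They hold 2 libraries each of wild-type epidermis from wound center and wound margin, 5 of wild-type center dermis, 2 of wild-type margin dermis and 2 of center dermis of K14-Cre-Twist1 mice, in which Cre under the keratin 14 promoter removes Twist1 from keratinocytes. Of the 5 wild-type center dermis libraries, 2 were compared here with the margin (region set) and 3 with the knockout (genotype set), after the libraries the study names for each comparison. A punch biopsy parted center from margin. The 12 libraries of wild-type Acomys cahirinus, the spiny mouse, an animal that regrows follicles and glands in wounds, came from 2-month-old animals: epidermis from unwounded skin (day 0, 1 library) and the whole wound at PWD14 (2), PWD21 (2) and PWD28 (1), and dermis at day 0 (2), PWD14 (1), PWD21 (2) and PWD28 (1). Days are those of the labels, and the study's own sample list gives slightly different wound days for the same spiny mouse libraries. Nothing in the labels says which libraries came from separate animals, so the tests measure the spread between libraries. The study describes its RNA-seq replicates as independent duplicates, and its sample list does not name the animal of each library. Libraries held 19413261 to 86532134 reads on genes in the laboratory mouse and 5669760 to 34751956 in the spiny mouse. The floor of 3 reads stood at 0.0347 to 0.155 CPM and at 0.0863 to 0.529 CPM, and intervals and floors cover counting error only. Spiny mouse reads were aligned to the laboratory mouse genome, so the level of a gene was not compared between the species.

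The labelled layers carried their markers. The 14 keratinocyte markers summed to 46222 CPM or more in every epidermis library, and fibroblast markers to 70258 CPM or more in every dermis library. The layers were not pure. Keratinocyte markers summed to 28039 and 17467 CPM in the day 0 dermis of the spiny mouse, against 1224 to 5897 CPM in its wound dermis. In the laboratory mouse they reached 2727 and 5090 CPM in the margin dermis and 37543 CPM in knockout replicate 2, against 15.7 to 678 CPM in the wild-type center dermis and 1051 CPM in knockout replicate 1.

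The 3 desaturase genes lie in one cluster in the mm10 build (GRCm38), with Scd4 between Scd2 and Scd1, Scd3 at chr19:44203288-44244016, Scd2 at chr19:44293676-44306864 and Scd1 at chr19:44394450-44407709. Their coding sequences (GENCODE M21) are close to each other, which bears on how reads can be assigned. Scd1 and Scd3 were identical at 974 of 1065 aligned coding bases (91.5%) and Scd1 and Scd2 at 962 of 1065 (90.3%). Of the 991 windows of 75 bases, the read length, in the Scd1 coding sequence, 111 occurred unchanged in Scd3 and 79 in Scd2. The first such stretch shared by Scd1 and Scd3 is shown with the same stretch of Scd2, with the base that differs from Scd1 in capitals.
Scd1, from coding base 463: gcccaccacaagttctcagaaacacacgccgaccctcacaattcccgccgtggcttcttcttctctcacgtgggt
Scd3, from coding base 475: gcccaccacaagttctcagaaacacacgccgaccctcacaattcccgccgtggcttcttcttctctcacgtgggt
Scd2, from coding base 472: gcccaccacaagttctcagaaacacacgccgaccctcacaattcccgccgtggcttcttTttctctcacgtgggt

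The read counts differed in the way the species split Scd1 and Scd3. In the laboratory mouse Scd3 had 0 to 0.102 reads for each Scd1 read over 13 libraries, with a median of 0.00137. In the spiny mouse the same ratio was 0.529 to 1.74 over 12 libraries, with a median of 0.947. Scd1 and Scd3 thus hold reads of the same order in every spiny mouse library, and whether they are 2 separate signals there was not tested. Every spiny mouse value of Scd1 and Scd3 that follows, and the place of both in each count of members called, is uncertain for this reason.

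**Figure D1:**
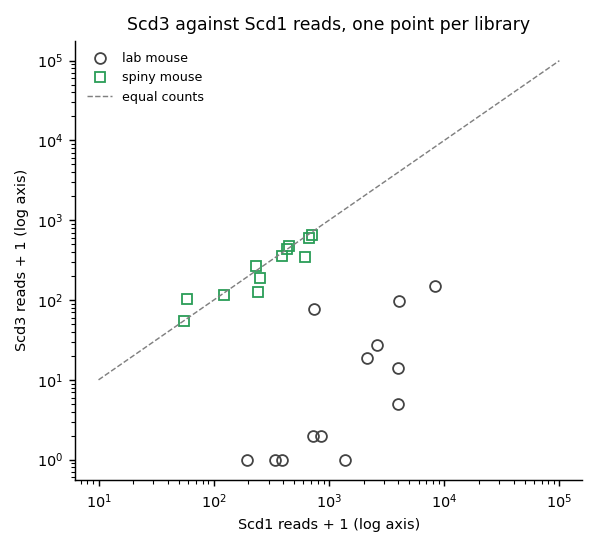
Reads assigned to Scd3 (vertical, plus 1, log axis) against reads assigned to Scd1 (horizontal, plus 1, log axis), one point per library, with a dashed line of equal counts. The 12 spiny mouse libraries lie along the line (ratio 0.529 to 1.74) and the 13 laboratory mouse libraries lie far below it (ratio at most 0.102).

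Upstream sequence was at hand for 5 of the 10 members in RefSeq (GRCm38.p6). The 120 bases before the RefSeq start are shown for Elovl5, Soat1, Far2 and Scd3, because all of them were called lower in both layers at PWD14 and higher again in epidermis at PWD21. Capitals mark matches on either strand to the CCAAT box or to the GC box, whose letters are GGGCGG.
Elovl5, chr9:77917245-77917364, plus strand: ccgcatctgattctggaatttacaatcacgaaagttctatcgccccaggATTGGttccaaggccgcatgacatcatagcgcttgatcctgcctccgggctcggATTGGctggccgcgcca
Soat1, chr1:156474329-156474448, minus strand: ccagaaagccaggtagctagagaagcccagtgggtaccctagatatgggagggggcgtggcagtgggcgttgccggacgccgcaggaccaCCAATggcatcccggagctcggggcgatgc
Far2, chr6:148047296-148047415, plus strand: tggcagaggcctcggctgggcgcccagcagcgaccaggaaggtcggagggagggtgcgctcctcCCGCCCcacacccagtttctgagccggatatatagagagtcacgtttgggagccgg
Scd3, chr19:44203168-44203287, plus strand: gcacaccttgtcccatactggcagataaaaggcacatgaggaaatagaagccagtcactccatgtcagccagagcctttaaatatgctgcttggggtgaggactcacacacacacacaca
Scd3 held none of the motifs searched. CCAAT was found in the 250 bases upstream of 33.9% of 32851 RefSeq promoters and GGGCGG in 32.7%. TATAAA (12.4% of promoters), the nuclear receptor motif AGGTCA (14.0%) and the sterol response element TCACNCCAC (1.05%) were searched over the same 250 bases and were not found upstream of these 4 genes. None of these motifs holds another, and a match is a description of the sequence only.

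In unwounded spiny mouse skin all 10 members were detected in both layers. Per kilobase of exon, Elovl3, an elongase of very long saturated and monounsaturated fatty acids, stood first in both, at 320 CPM per kilobase in epidermis and 453 in dermis. Mc5r, the receptor through which melanocortins act on sebocytes, stood last at 1.67 and 1.66 CPM per kilobase. On the CPM scale 5 members were higher in epidermis than in the mean of dermis and 5 were lower. Dgat2, which makes triacylglycerol and is also expressed by keratinocytes and adipocytes, had 876 CPM in epidermis and 72.5 and 185 CPM in dermis.

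Day 14 of the spiny mouse wound held the lowest levels of most members in both layers. Of the 10 members, 9 were called lower than at day 0 in epidermis and 9 in dermis. The test was edgeR's quasi-likelihood test at a Benjamini-Hochberg FDR under 0.05. Scd2 was the exception in both layers, and Scd1 and Scd3, with uncertain reads, were among the 9. Over all genes tested, 26.1% were called lower in epidermis and 10.5% in dermis. The median log2 fold change of the members was -2.83 in epidermis and -3.94 in dermis, beside -0.15 and -0.05 over all genes tested, and holding the 3 members with 0 dermal reads at their bounds left the dermal median at -3.94. As bulk libraries, these cannot tell fewer sebocytes from less RNA per sebocyte. The day 14, 21 and 28 comparisons share the same day 0 libraries, 1 in epidermis and 2 in dermis, and a day with a lone library is assumed to vary like the others.

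Far2, which reduces fatty acids to the fatty alcohols of wax esters, had the largest epidermal fall of the 10 at day 14. In epidermis it had 261 CPM at day 0, 3.02 and 0.638 CPM at day 14, 40.4 and 49.4 CPM at day 21 and 66.6 CPM at day 28. In dermis it had 264 and 517 CPM at day 0, 0 reads at day 14, 33.6 and 69.1 CPM at day 21 and 10.1 CPM at day 28. No wound library reached the lowest day 0 library in either layer. The log2 fold change at day 14 was -6.50 ± 0.42 (SE) in epidermis (FDR = 4.94e-06), and in dermis the level was at least 2211.5-fold lower, against a floor of 3 reads in that library.

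Awat2, which joins fatty alcohols to fatty acids, followed the same course at a lower level. It had 57.4 CPM in day 0 epidermis, 7.05 and 3.0 CPM at day 14, 11.4 CPM in both day 21 libraries and 23.4 CPM at day 28. In dermis it had 53.3 and 83.0 CPM at day 0, 0 reads at day 14, 4.97 and 8.20 CPM at day 21 and 2.83 CPM at day 28. The dermal day 14 level was at least 386-fold lower than at day 0, and the epidermal log2 fold change was -2.82 ± 0.38 (FDR = 0.000169). The same-family wax synthase Awat1 had 120 CPM in day 0 epidermis, 15.7 and 4.91 CPM at day 14 and 60.1 CPM at day 28.

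Elovl3 fell in both layers, to different levels at day 14. Epidermis went from 632 CPM at day 0 to 88.7 and 18.8 CPM at day 14, 169 and 162 CPM at day 21 and 324 CPM at day 28. Dermis went from 791 and 998 CPM to 0.177 CPM, which is 3 reads, then 80.2 and 106 CPM at day 21 and 36.5 CPM at day 28. The dermal ratio of day 0 to day 14 was 5063 with an exact Poisson 95% interval of 1732 to 24550, counting error only. The epidermal log2 fold change was -2.83 ± 0.57 (FDR = 0.00213), with a difference of several-fold between its day 14 libraries.

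The receptor Mc5r had a low level and stood near or under the floor of 3 reads at day 14. It had 69 reads (6.52 CPM) in day 0 epidermis, 0 and 5 reads (0.319 CPM) at day 14, 1.0 and 1.43 CPM at day 21 and 6.26 CPM at day 28. In dermis it had 3.0 and 9.99 CPM at day 0, 0 reads at day 14, 1.82 and 3.11 CPM at day 21 and 0.683 CPM at day 28. The dermal level at day 14 was at least 36.8-fold lower than at day 0. In epidermis it was called lower at day 14 (log2 fold change -4.46 ± 0.85, FDR = 0.00131) and day 21 (-2.29 ± 0.54, FDR = 0.00943), a day 21 call that was lost without PWD21 epidermis replicate 1.

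Elovl5, an elongase of polyunsaturated fatty acids, and Soat1, which stores cholesterol as ester, both fell at day 14. Elovl5 had 233 CPM in day 0 epidermis, 16.9 and 7.21 CPM at day 14, 34.4 and 39.9 CPM at day 21 and 64.0 CPM at day 28. Soat1 had 156 CPM, then 8.06 and 3.45 CPM, 27.5 and 37.5 CPM, and 61.0 CPM. In dermis Elovl5 had 282 and 461 CPM at day 0 and 23.1 CPM at day 14, and Soat1 had 62.6 and 155 CPM at day 0 and 12.1 CPM at day 14. The epidermal log2 fold changes at day 14 were -3.57 ± 0.36 for Elovl5 (FDR = 3.70e-05) and -4.07 ± 0.36 for Soat1 (FDR = 2.25e-05).

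The desaturases did not move as one. Scd1, the main desaturase of sebocytes, had 40.6 CPM in day 0 epidermis, 9.38 and 3.70 CPM at day 14, 19.9 and 25.6 CPM at day 21 and 23.9 CPM at day 28. In dermis it had 42.3 and 90.8 CPM at day 0, 3.18 CPM at day 14, 17.8 and 20.3 CPM at day 21 and 24.3 CPM at day 28. Its log2 fold change at day 14 was -1.94 ± 0.41 in epidermis (FDR = 0.00295) and -4.12 ± 0.55 in dermis (FDR = 0.00223). Scd3, whose reads are as uncertain here as those of Scd1, had 40.6, 8.99 and 6.44 CPM in epidermis at days 0 and 14. Scd2 was the member that passed no test against day 0, with 248 CPM in day 0 epidermis and 178 to 237 CPM in all later epidermis, and 92.1 and 97.3 CPM in day 0 dermis and 73.8 to 121 CPM later. The direction of Scd2 in epidermis at day 14 depended on the scaling, with a log2 fold change of 0.32 under TMM factors and -0.402 without them.

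Dgat2 had the smallest day 14 fall of the 9 members called in each layer. Epidermis had 876 CPM at day 0, 273 and 385 CPM at day 14, 849 and 1022 CPM at day 21 and 467 CPM at day 28. The epidermal day 14 change of -0.70 ± 0.22 (FDR = 0.0227) was lost without PWD14 epidermis replicate 1. In dermis Dgat2 had 72.5 and 185 CPM at day 0 and 26.5 to 43.7 CPM in all 4 wound libraries, none of which reached day 0. The dermal day 14 change was -1.82 ± 0.52 (FDR = 0.0441) and was lost without day 0 replicate 2 or either PWD21 dermis replicate.

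**Figure D2:**
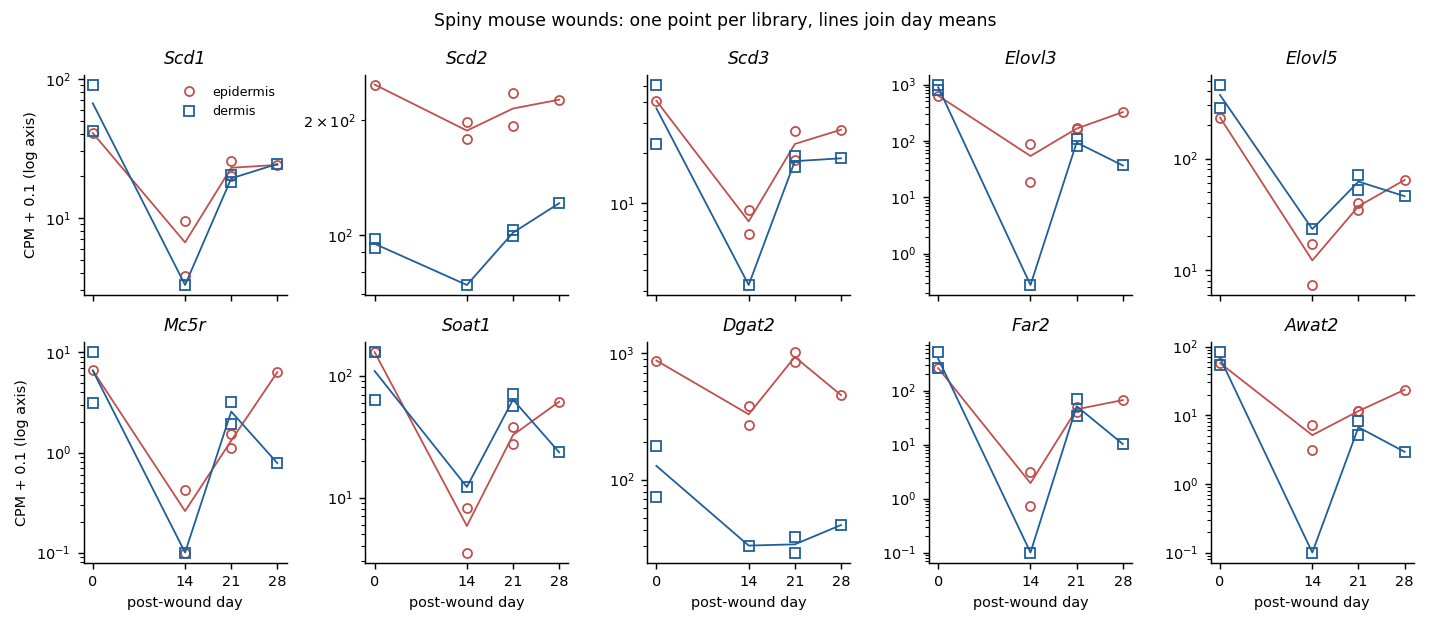
CPM plus 0.1 (log axis) of the 10 members in spiny mouse epidermis (red circles) and dermis (blue squares) by post-wound day, one point per library, with lines joining the mean of each day. Far2, Awat2, Elovl3 and Mc5r reach the bottom of the dermal scale at day 14 (0 to 3 reads), while Scd2 stays between 73.8 and 248 CPM in all libraries.

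By day 21 the epidermis had regained part of the pathway. Against day 14, 6 of 10 members were called higher, where 20.9% of all genes tested were called higher. They were Far2, Soat1, Elovl5, Dgat2 and the uncertain Scd1 and Scd3. Far2 rose by 4.15 ± 0.40 on the log2 scale (FDR = 0.0001) and Soat1 by 1.98 ± 0.33 (FDR = 0.00112). Scd1 rose by 1.28 ± 0.36 (FDR = 0.0157), a call lost without PWD21 epidermis replicate 2, as was that of Scd3, which was also lost without PWD14 epidermis replicate 2. The median over the members was 1.09, beside 0.07 over all genes tested.

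Against day 0 the day 21 level was still short for most members. In epidermis 6 were called lower, Elovl3, Elovl5, Mc5r, Soat1, Far2 and Awat2 (15.3% of all genes), with log2 fold changes of -2.47 to -1.75. DESeq2 called 3, a count without a share over all genes here. In dermis 6 were called lower, Scd1, Elovl3, Elovl5, Dgat2, Far2 and Awat2 (12.4% of all genes), with changes of -3.40 to -1.83. As a share of the day 0 CPM, the 10 members stood at a median of 23.5% in epidermis (15.9% to 107%) and 26.3% in dermis (9.66% to 107%), against 8.62% and 5.50% at day 14. On CPM scaled by TMM factors computed over all 12 spiny mouse libraries, the epidermal medians were 14.4% at day 14 and 27.0% at day 21. The dermal Scd1 call was lost without either PWD21 dermis replicate, and that of Dgat2 without PWD21 dermis replicate 1.

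Day 28 is 1 library in each layer, and no test compared the layers there. In epidermis the members stood at a median of 52.2% of day 0 (25.6% to 96.1%). Only Elovl5 (-1.98 ± 0.41, FDR = 0.0271) and Far2 (-2.08 ± 0.39, FDR = 0.0168) were called lower, where 1.30% of all genes were. The number called was 6 without PWD14 epidermis replicate 1 and 6 without replicate 2, and it was 0 with the edgeR 3 estimate and 0 with at least 10 counts in every library. In dermis the median was 16.9% (2.6% to 128%), and 5 members were called lower, Far2, Elovl3, Awat2, Elovl5 and Soat1 (2.70% of all genes), Soat1 not without either PWD21 dermis replicate. Without day 0 dermis replicate 1, which stood lower than replicate 2 for all 10 members, the dermal count was 9, DESeq2 called 8, and 3 were called with at least 10 counts in every library. Far2 in dermis was at -5.48 ± 0.68 (FDR = 0.00583) and Elovl3 at -4.86 ± 0.48 (FDR = 0.00255). The day 28 counts under alternative fits, in both layers, have no share over all genes beside them here. Dermal Elovl3, Far2, Awat2, Mc5r, Soat1 and Elovl5 were lower at day 28 than in both day 21 libraries. Dermal Scd1, Scd2 and Dgat2 were higher at day 28 than in both, at 24.3, 121 and 43.7 CPM, and no test of days 28 and 21 was run. Dermal Scd1 (-1.67 ± 0.47) did not pass at FDR = 0.0813.

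**Figure D3:**
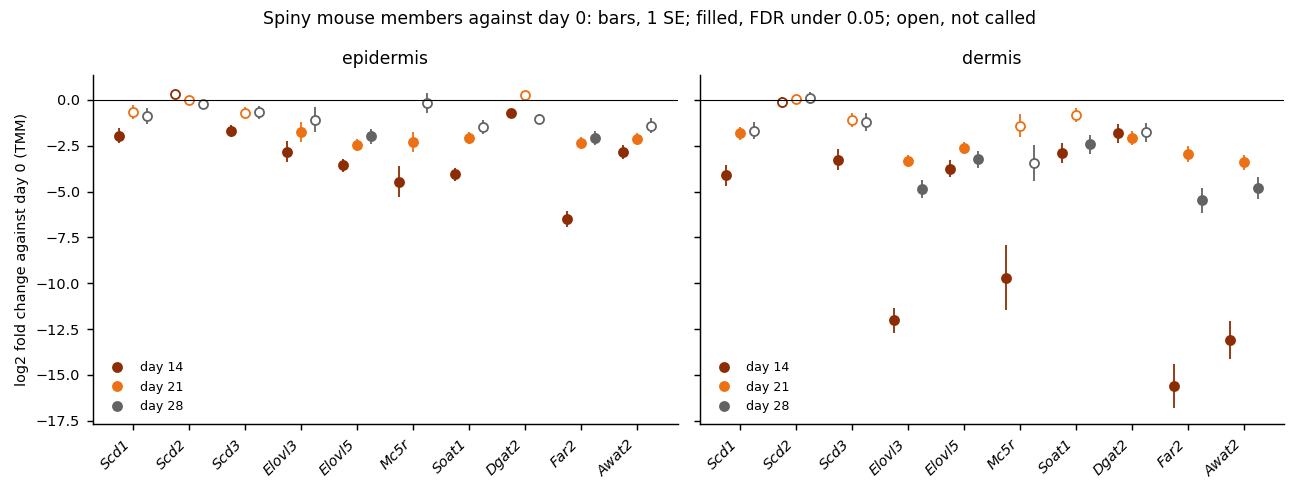
Log2 fold change of each member against day 0 in spiny mouse epidermis (left) and dermis (right) at PWD14, PWD21 and PWD28, with bars of 1 SE. Filled points have an FDR under 0.05 and open points do not. Dermal values for Far2, Awat2 and Mc5r at PWD14 rest on 0 reads and depend on the prior count.

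Hair follicle markers also fell in sum at day 14, but in epidermis they stood above day 0 from day 21. The 21 hair follicle markers found summed to 435 CPM in day 0 epidermis, 119 and 152 CPM at day 14, 1378 and 770 CPM at day 21 and 27322 CPM at day 28. In dermis they summed to 552 and 15053 CPM at day 0, 114 CPM at day 14, 2211 and 2464 CPM at day 21 and 38304 CPM at day 28. Both day 28 libraries thus held more hair follicle marker RNA than any day 0 library, while the sum of the 10 members was 1290 CPM in epidermis and 326.7 CPM in dermis, against 2551 CPM in day 0 epidermis and 1685 and 2648 CPM in day 0 dermis. In day 21 epidermis 12 of 21 hair follicle markers were called higher than at day 0 and 3 lower. In day 21 dermis 1 was called higher and 4 lower. In day 28 epidermis 18 of 21 were called higher and none lower, and in dermis 2 were called higher and none lower. Of all 14336 genes tested in epidermis, 1916 were called higher at day 21 and 304 at day 28. Of 15344 in dermis, 1779 and 400 were.

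RNA of several other cell types also moved. The adipocyte hormones Adipoq and Lep had 20.3 and 21.0 CPM and 24.5 and 27.6 CPM at day 0 and 0 to 0.878 CPM in all 4 wound dermis libraries. Of 14 adipocyte markers, 12 were called lower at day 14, 13 at day 21 and 9 at day 28. Of 14 keratinocyte markers, 7, 13 and 3 were called lower. Scd1, Elovl5 and Dgat2 are also made by adipocytes, and the part of adipocytes or of epidermis left on the day 0 dermis in the dermal fall was not tested. Schwann cell markers summed to 1107 and 1007 CPM in day 0 dermis and 134 to 592 CPM in the wound, with 8, 3 and 1 of 10 called lower at days 14, 21 and 28. Of 12 skeletal muscle markers 5, 9 and 6 were called lower, and of 15 fibroblast markers 7, 7 and 4 were called higher and 1, 0 and 0 lower. Of all 15344 genes tested in dermis at days 14, 21 and 28, 10.5%, 12.4% and 2.70% were called lower. The numbers called higher were 1226, 1779 and 400. The part of these cell types in the members' fall was not tested.

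In spiny mouse epidermis the 14 adipocyte markers summed to 145 CPM at day 0, 6334 and 5191 CPM at day 14, 1397 and 1092 CPM at day 21 and 179 CPM at day 28. Nearly all of the day 14 sum was the fatty acid carrier Fabp4, which had 27.9 CPM at day 0 and 6302 and 5159 CPM at day 14. Of the 8 adipocyte markers tested there, 1 was called higher (Fabp4) and 4 lower at day 14, among them Plin4, Cidec and Lipe. The defining markers Adipoq, Lep and Plin1 were at 0 to 0.513 CPM in all 6 epidermis libraries. Of 14 keratinocyte markers 8 were called higher and 5 lower at day 14, and their sum was 61300 CPM at day 0 and 139080 and 112350 CPM at day 14. Of 11 macrophage markers tested 5 were called higher and 2 lower. Of all 14336 genes tested in epidermis at day 14, 3255 were called higher and 3737 lower.

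**Figure D4:**
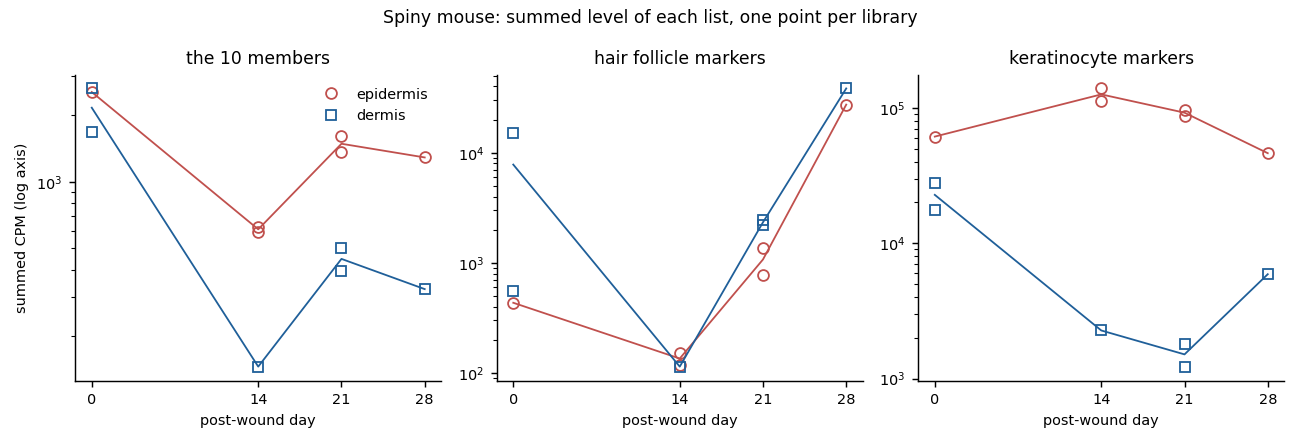
Summed CPM (log axis) of the 10 members, 21 hair follicle markers and 14 keratinocyte markers by post-wound day in spiny mouse epidermis (red circles) and dermis (blue squares), one point per library, lines joining day means. The members are lowest at day 14 and stay below day 0 at day 28, when the hair follicle markers stand at 27322 and 38304 CPM.

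A wider list of 40 sebaceous companion genes was also lower in the wound, most at day 14. Of all genes tested in epidermis, 26.1%, 15.3% and 1.30% were called lower at days 14, 21 and 28. In dermis the shares were 10.5%, 12.4% and 2.70%. In epidermis 19 of 33 tested were called lower and 3 higher at day 14 (median log2 fold change -2.01, all genes -0.15), 13 lower and 5 higher at day 21 (median -0.86), and 4 lower and 0 higher at day 28 (median -0.42). In dermis 19 of 38 were called lower and 1 higher at day 14, with a median of -3.72, or -2.67 with the 8 genes that had a group at 0 held at their bounds. At day 21 it was 19 lower and 1 higher (median -1.55) and at day 28 it was 14 lower and 1 higher (median -1.69, or -1.68 with 3 genes at their bounds). Alox12e, a lipoxygenase of sebaceous glands, fell in epidermis from 85.1 CPM to 0.310 and 0.574 CPM and was still at 3.90 CPM at day 28 (-4.55 ± 0.39, FDR = 8.80e-05). Fa2h, which hydroxylates fatty acids, fell in dermis from a mean of 569 CPM over the 2 day 0 libraries to 0.353 CPM and stood at 28.7 CPM at day 28 (-4.53 ± 0.75, FDR = 0.0155). The lipid droplet gene Cidec fell in dermis from a mean of 66.6 CPM to 0 reads at day 14 and was still lower at day 28 (-7.07 ± 0.80, FDR = 0.00388). Cidec is also on the adipocyte marker list, of which 12 of 14 were called lower in day 14 dermis. The part of adipocytes in its fall was not tested. Gal, which encodes a neuropeptide, and Fabp5, a fatty acid carrier of keratinocytes, were called higher in day 14 epidermis, Fabp5 by 4.12 ± 0.27 (FDR = 4.94e-06).

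The general fatty acid synthesis genes, which serve many cell types, fell as well. Of 15 tested in epidermis, 10 were called lower and 1 higher at day 14, 10 and 0 at day 21, and 3 and 0 at day 28. Of 16 in dermis, 8, 6 and 2 were called lower and none higher. Of all genes tested, 26.1%, 15.3% and 1.30% were called lower in epidermis at days 14, 21 and 28. In dermis 10.5%, 12.4% and 2.70% were. Acss2, which makes acetyl-CoA, went from 188 CPM in day 0 epidermis to 10.2 and 8.61 CPM at day 14 and was at 24.7 CPM at day 28 (-3.04 ± 0.30, FDR = 0.00025). Fasn, the fatty acid synthase, went from 1566 CPM to 171 and 83.3 CPM at day 14 and 490 CPM at day 28 (-1.79 ± 0.40, FDR = 0.0387). In dermis Fasn fell from 840 and 1327 CPM to 95.2 CPM at day 14 (-3.26 ± 0.67, FDR = 0.0131).

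Between the layers at day 21, where each had 2 spiny mouse libraries, 4 members were called higher in epidermis (29.4% of all genes) and 2 lower (33.5%). Dgat2 was higher by 5.04 ± 0.28 (FDR = 9.01e-06) and Scd2 by 1.20 ± 0.19 (FDR = 0.00105). Elovl3 was higher by 0.94 ± 0.22 (FDR = 0.00739) and Awat2 by 0.90 ± 0.32 (FDR = 0.0433). Soat1 was lower in epidermis, at -0.86 ± 0.23 (FDR = 0.0136), and Elovl5 at -0.63 ± 0.23 (FDR = 0.0447). The count fell to 3 without PWD21 epidermis replicate 1, when Awat2, Soat1 and Elovl5 were lost. The Awat2 call was also lost without epidermis replicate 2 or dermis replicate 1, and the Elovl5 call without replicate 2 of either layer.

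The genes most like 5 of the members across the 12 spiny mouse libraries, by Pearson r of log2(CPM + 0.5) taken over genes averaging 1 CPM or more, included other lipid genes. Elovl3 was most like Fa2h (r = 0.987), Awat1 (0.985) and Awat2 (0.971). Awat2 was most like Pank1, which starts coenzyme A synthesis (0.984), Awat1 (0.978) and Cidea, a lipid droplet gene (0.974). Far2 was most like the ceramide synthase Cers4 (0.970), Secisbp2l (0.962) and Scd1 (0.957). Scd1 was most like Secisbp2l (0.970), Scd3 (0.958, with reads that may be shared) and Far2 (0.957). Mc5r was most like Ninl (0.940), Gm5538 (0.923) and Gpr18 (0.921). The libraries share layers and days, so these values are a description.

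In the laboratory mouse at PWD14 the members differed widely in how often they were detected. Mc5r had 0 reads in 12 of 13 libraries and 2 reads in margin dermis replicate 2. Elovl3 had 0 to 3 reads in 9 of 13 libraries, while Scd1 had 7.36 to 375 CPM in all 13. Per kilobase of exon, Dgat2 stood first in epidermis (98.2 CPM per kilobase in the center and 53.5 in the margin) and Scd2 first in all dermis groups (57.6 to 101). Elovl3, Far2, Awat2 and Scd3 reached their highest level in margin dermis replicate 2.

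In dermis, center against margin asks whether the inner wound, away from the old follicles, holds less of the pathway. Elovl3 had 0 reads in both center libraries of the region set and 9.35 and 24.3 CPM in the margin, at least 109-fold higher. Far2 had 0 reads in both center libraries and 1.34 and 23.7 CPM in the margin, at least 81.0-fold higher on the mean, with a wide gap between the margin libraries. Awat2 had 0 reads in both and 1.38 and 6.49 CPM, at least 25.5-fold higher. Scd3 had 0 and 1 read in the center and 4.13 and 6.80 CPM in the margin, a ratio of 227 with an exact Poisson 95% interval of 40.7 to 8961. In the genotype set 1 center library had Far2 at 2.13 CPM, above a margin library. None of the 4 passed the test across all genes, with FDR values of 0.0777 for Elovl3, 0.225 for Far2, 0.215 for Awat2 and 0.178 for Scd3.

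Scd1 was the member called in this comparison, where 0.735% of all genes were called lower. It had 15.2 and 37.5 CPM in the center and 173 and 375 CPM in the margin (log2 fold change -3.30 ± 0.41, FDR = 0.0043). The call was lost without margin dermis replicate 2 (log2 fold change -2.70) and with the edgeR 3 estimate. With all 5 wild-type center libraries 3 members were called, and DESeq2 called 6. Neither count has a share over all genes beside it here. Dgat2 had 2.04 and 4.64 CPM in the center and 13.6 and 24.6 CPM in the margin (-2.45 ± 0.69, FDR = 0.157). Of the 9 members tested 8 had an unadjusted p under 0.05, as did 2327 of all 14698 genes tested. Soat1, the only member higher in the center, had 90.9 and 118 CPM there against 97.6 and 95.0 CPM (FDR = 0.74). The median over the members was -3.30, beside -0.03 over all genes tested. With 0 or 1 read in the center, Elovl3, Far2, Awat2 and Scd3 entered the test through the margin and could only come out lower. The median of -3.30 and the 8 members with an unadjusted p under 0.05 include them. Among the members read in both regions, Scd1 and Dgat2 were followed by Elovl5 at -0.66, the middle value, Scd2 at -0.52 and Soat1 at 0.20.

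Some companion genes and epithelial markers were also called lower in the center. Of 29 sebaceous companions tested 4 were called lower in the center and none higher, with a median of -1.01. They were Alox12e, with 0 reads in the center and 24.8 and 45.6 CPM in the margin, the duct keratin Krt79 (-5.40 ± 0.56, FDR = 0.00151), and the elongases Elovl4 (-4.61 ± 0.58, FDR = 0.00432) and Elovl6 (-3.69 ± 0.61, FDR = 0.0184). Of 21 hair follicle markers 11 were called lower and of 14 keratinocyte markers 8, where 0.735% of all genes were. Of those tested, 15 hair follicle markers and 6 sebaceous companions had 0 reads in both libraries of a region. A gene with 0 reads in the center entered the test through the margin and could only come out lower. No keratinocyte marker had 0 reads throughout a region. Hair follicle markers summed to 79.8 and 56.9 CPM in the center and 839 and 951 CPM in the margin, and keratinocyte markers to 678 and 499 CPM against 2727 and 5090 CPM. Of 10 Schwann cell markers 2 were called lower. No fibroblast, macrophage or endothelial marker was called, with medians of 0.23, 0.39 and 0.40. The part of epithelium left in the margin dermis was not tested. None of 15 fatty acid synthesis genes was called.

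**Figure D5:**
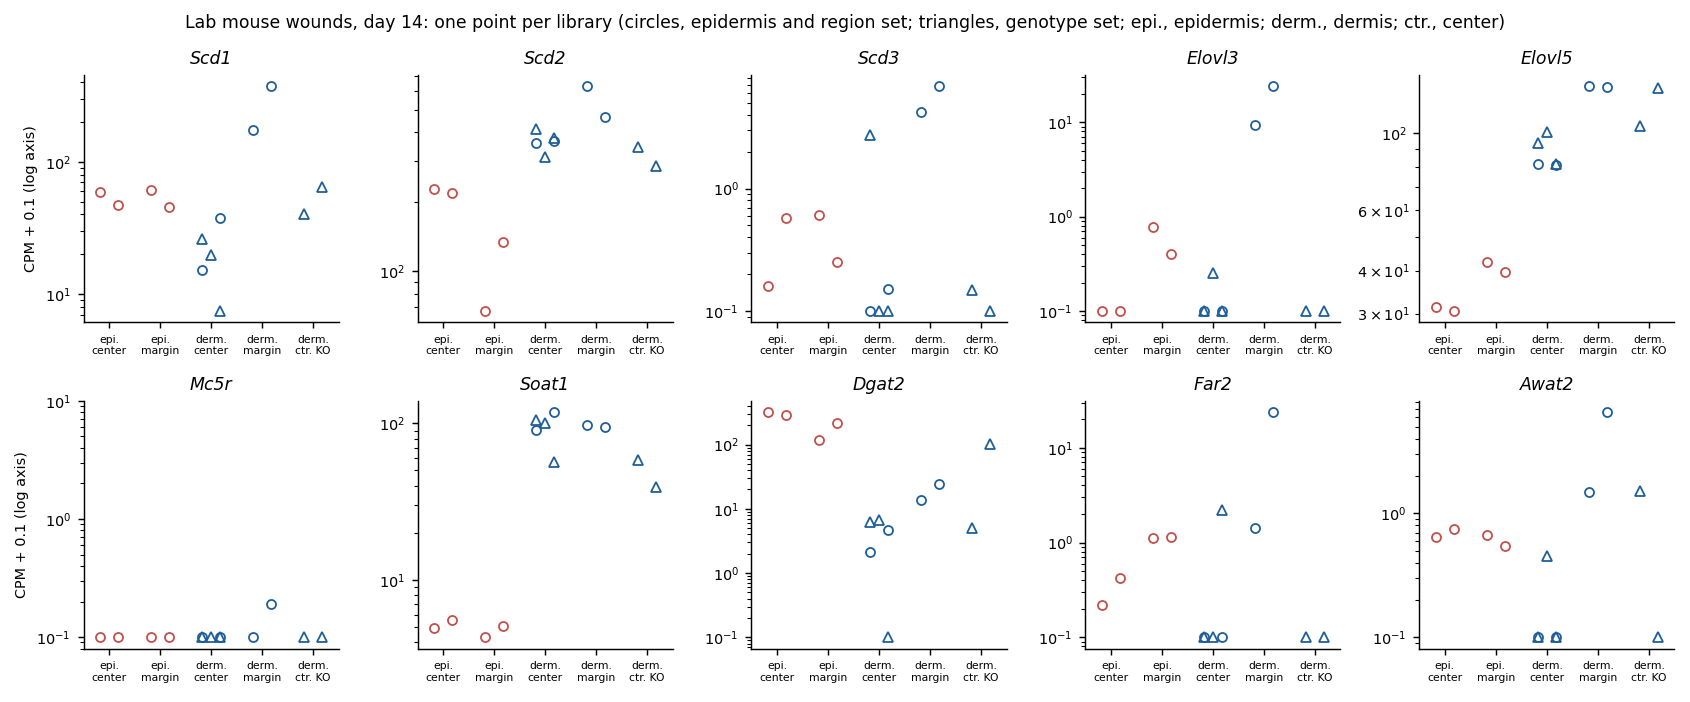
CPM plus 0.1 (log axis) of the 10 members in laboratory mouse wounds at PWD14, one point per library, by layer, region and genotype. Elovl3, Far2, Awat2 and Scd1 reach their highest level in margin dermis replicate 2, Dgat2 is high in epidermis and in 1 knockout dermis library (101 CPM), and Mc5r is at 0 reads except for 1 library with 2 reads.

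In epidermis, center against margin showed no called member, where 1.24% of all genes were called in either direction. Of the 9 members tested 4 had an unadjusted p under 0.05, as did 3328 of all 14165 genes tested. DESeq2 called 1. The count also moved without either margin epidermis replicate, fits that leave 1 margin library and lack a share over all genes here. With 1 library left out, the log2 fold changes ran from 0.70 to 1.57 for Scd2, 0.47 to 1.22 for Dgat2 and -3.21 to -1.72 for Far2. Scd1 had 59.1 and 47.0 CPM in the center and 60.6 and 45.7 CPM in the margin, and the regions overlapped (log2 fold change -0.11 ± 0.27, FDR = 0.821). Scd2 had 227 and 218 CPM against 67.3 and 134 CPM (1.05 ± 0.32, FDR = 0.143), and Dgat2 had 320 and 285 CPM against 117 and 213 CPM (0.78 ± 0.29, FDR = 0.188). Elovl3 had 0 reads in both center libraries and 24 and 26 reads (0.680 and 0.300 CPM) in the margin, at least 9.04-fold higher. Far2 had 0.118 and 0.326 CPM against 1.02 and 1.04 CPM (-2.36 ± 0.80, FDR = 0.16). Fibroblast markers summed to 6117 and 5070 CPM in the center epidermis and 2401 and 865 CPM in the margin.

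The center-margin contrasts of the layers were set against each other in one fit. Scd1 was called, with a difference of 3.33 on the log2 scale between the epidermal and the dermal contrast (FDR = 0.0114), as was Dgat2 (3.36, FDR = 0.00909), where 3.34% of all genes were called in that direction. Neither was called without center dermis replicate 1 or without margin dermis replicate 2, and DESeq2 called 5 members. In the same direction 7 of 14 keratinocyte markers (median 2.89), 5 of 10 endothelial, 4 of 15 fibroblast and 2 of 10 Schwann cell markers were called and none in the other, and their part in the members' difference was not tested. The DESeq2 count has no share over all genes beside it here. Epidermis and dermis libraries differed in read type (paired-end and single-end), which does not enter the contrast within a layer.

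Between layers of the laboratory mouse wound, Dgat2 was the member with the clearest epidermal side. In the center it was higher in epidermis by 7.31 ± 0.42 on the log2 scale (FDR = 0.000248) and in the margin by 3.95 ± 0.42 (FDR = 4.13e-05). In the center Scd1 was also higher in epidermis (1.81 ± 0.43, FDR = 0.0174), so 2 of 6 members tested were called higher (29.4% of all genes). Soat1 (-3.56 ± 0.22, FDR = 0.000283) and Elovl5 (-0.61 ± 0.16, FDR = 0.0253) were called lower (26.8% of all genes), the latter lost without either center epidermis library. In the margin only Dgat2 was called higher (20.9% of all genes) and 6 of 9 were called lower (27.0%), Scd1, Scd2, Scd3, Elovl3, Elovl5 and Soat1. Scd1 there was at -1.50 ± 0.39 (FDR = 0.00957) and Elovl3 at -4.44 ± 0.85 (FDR = 0.0017). The margin count was 4 without margin dermis replicate 2, when Scd1, Scd3 and Elovl5 were lost. Scd2 and Elovl5 were lost without margin dermis replicate 1, and Scd3 without margin epidermis replicate 2. Read type differs between these layers and cannot be told apart from the layer.

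For K14-Cre-Twist1 the targeted gene was read first. Twist1 had 73.4 and 44.0 CPM in the knockout center dermis and 57.7, 36.3 and 105 CPM in the 3 wild-type libraries of the set, and the genotypes overlapped. The deletion is driven in keratinocytes, so dermal Twist1 checks the labels little. None of 5 members tested was called, where 0.0565% of all genes (8 genes) were called in either direction. An unadjusted p under 0.05 was found for 3 members and for 1631 of all 14163 genes tested. Dgat2 had 4.85 and 101 CPM in the knockout and 6.12, 6.70 and 0 CPM in the wild type (3.64 ± 1.16, FDR = 0.324). The high Dgat2 library is knockout replicate 2, whose keratinocyte markers summed to 37543 CPM against 1051 CPM in replicate 1. In the 3 wild-type libraries of the set they summed to 18.5, 15.7 and 59.9 CPM, below both knockout libraries. Of 13 keratinocyte markers tested 13 were higher in the knockout and 2 of them were called (median log2 fold change 9.43). The part of epidermal RNA in the Dgat2 and Scd1 values was not tested. Scd1 had 40.2 and 63.8 CPM in the knockout against 26.0, 19.5 and 7.36 CPM (1.55 ± 0.50, FDR = 0.329). Without knockout replicate 1, leaving that keratinocyte-rich library alone, Scd1 and Dgat2 were called. Elovl3 had 0 reads in both knockout libraries and 0, 3 and 0 reads in the wild type, and Mc5r had 0 reads in all 5.

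Across the 13 laboratory mouse libraries Elovl3 was most like the hair shaft keratins Krt35 (Pearson r = 0.992) and Krt81 (0.981) and Cyp2g1 (0.984). Far2 was most like Fa2h (0.904), Serpina3j (0.893) and Cyp2g1 (0.877). Scd1 was most like Krt79 (0.920), Sprr4 (0.857) and Pla2g12a (0.853), and Awat2 like Zmym2 (0.867), Cyp2g1 (0.843) and Gm13251 (0.837). The 2 margin dermis libraries hold the highest levels of Elovl3, the libraries share layers and regions, and these values are a description.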

How the data were processed

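PolyA RNA was sequenced from 25 libraries. Per the labels and the study's methods, the authors aligned reads to mm10 with STAR (version 2.4.1d in the submitters' processing notes, another version in the methods) and counted reads per gene with HTSeq 0.6.0. The deposited unit is raw read counts per gene symbol, one file per library. Laboratory mouse libraries were strand-specific and spiny mouse libraries were not, and wound layers were parted by hand in the former and with trypsin in the latter. Summary rows that name no gene were left out: reads on genes were 57.7% to 69.8% of counted reads in laboratory mouse libraries and 24.4% to 52.9% in the spiny mouse.

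From the counts, CPM were computed over all gene rows. Tests used edgeR 4.0.16 (R 4.3.3): filterByExpr, TMM factors, and the quasi-likelihood test with a prior count of 0.125 and FDR under 0.05 over all genes tested. Spiny mouse days were fitted together within a layer. The SE is the log2 fold change divided by the square root of its F. TMM factors moved the median of all genes, so changes are read relative to it: without them that median was -0.86 in spiny mouse epidermis at PWD14 (-0.15 with them), 0.60 at PWD21 against PWD14 (0.07), -0.28 and 0.26 in dermis at PWD14 and PWD28 (-0.05 and 0.01), and -0.73 and -0.98 between the layers of the laboratory mouse center and margin (0.05 and -0.16). Alternatives were RLE factors, no factor, other low-count filters, DESeq2 1.42.0, other library sets, leaving out each library and, added after seeing the data, the edgeR 3 estimate. Fits were tested on simulated data. The 18 pairs of replicates differed by a chi-square of 28.3 to 375 per degree of freedom, so none was counted as 1 library deposited again. All 10 members were named in every comparison, with at most 4 called companion genes of a list, chosen by largest change. Members and lists were chosen with earlier results of these data known.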

Additional observations from a re-analysis of the deposited data

Results flagged for a closer look

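Among the 5 wild-type center dermis libraries of the laboratory mouse, 4 of 9 members tested had a library that stood apart from the rest by Dixon's criterion, which flags about 1 in 20 groups of continuous values by chance. For Far2, Elovl3 and Awat2 the other 4 libraries had 0 reads, which alone meets the criterion whatever the remaining value is, so that rate does not apply to them. Scd3 was at 2.66 CPM in genotype set replicate 3 and at 0 to 0.0515 CPM in the others. Far2 was at 2.13 CPM in replicate 5 and at 0 in the others. Elovl3 was at 0.151 CPM (3 reads) and Awat2 at 0.353 CPM (7 reads), both in replicate 4, and at 0 in the others. The high library was not the same for all of them. The center-margin contrast differed between epidermis and dermis by the test of the difference for Scd1 (3.33 on the log2 scale) and for Dgat2 (3.36).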

How the results depend on the processing

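Of 696 refits of the 63 called member changes, 647 kept direction and call and 49 kept direction but lost the call. Of 158 member counts under an alternative, 136 stayed within 1.5 times. Under DESeq2 the members called were 1 in laboratory mouse epidermis, 6 in dermis and 5 for the difference of the layers, and 3 in spiny mouse epidermis at PWD21 and 8 in dermis at PWD28. With at least 10 counts in every library, which drops members, they were 0 in epidermis at PWD28, 5 in dermis at PWD14 and 3 at PWD28. With the edgeR 3 estimate none was called in laboratory mouse dermis or in spiny mouse epidermis at PWD28. With all 5 wild-type center libraries 3 were called in dermis. Leaving out 1 library at a time gave 0 to 5 in laboratory mouse epidermis, 0 to 1 in dermis, 0 to 2 for the knockout, 0 to 3 for the difference of the layers, 4 to 7 between margin layers, 3 to 7 between the PWD21 layers, and 3 to 6 in epidermis and 4 to 9 in dermis at PWD28. Shares over all genes were not set beside these counts, and in groups of 2 such a fit leaves 1 library. The cause was not tested. Reversals were among uncalled changes. Scd1 in laboratory mouse epidermis was at 0.0034 without TMM factors. Scd2 without them was at -0.402 in spiny mouse epidermis at PWD14, 0.19 at PWD21 against PWD14 and -0.71 between the laboratory mouse center layers (-0.00043 with all 5 center libraries). Scd2 at PWD21 was at 0.012 in epidermis without a low-count filter, and in dermis at -0.056 with RLE, -0.011 with at least 10 counts, -0.055 with DESeq2 and -0.012 with 4 libraries. Soat1 in the difference of the layers was at 0.029 without TMM factors and 0.0069 with the edgeR 3 estimate. With 1 library left out, the log2 fold changes ran, in laboratory mouse epidermis, from -0.34 to 0.18 (Scd1), -2.22 to 0.78 (Scd3), -0.043 to 0.17 (Soat1) and -0.088 to 0.36 (Awat2), for Scd2 at PWD21 from -0.16 to 0.082 in epidermis and -0.083 to 0.10 in dermis, for Far2 between layers from -3.63 to 0.39 in the margin and -0.57 to 0.57 at PWD21, and for Soat1 in the difference of the layers from -0.28 to 0.097. No paired analysis was possible because the labels carry no replicate numbers. Depth limits Mc5r, Elovl3, Far2 and Awat2 where a group has 0 to 3 reads.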
